A study of Mus musculus with 4 samples.

Results

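*Il2*, *Egr3*, *Nr4a3*, *Cd69* and *Ier3*, genes that T cells switch on soon after their receptor is engaged, were compared between WT and *Areg*-/- Th9 cells, helper T cells that make interleukin 9. They are 5 of the 515 genes in the table of expression values. They were chosen by name with the values of both genotypes already known, so their values and directions below are a description and were not tested. RNA was sequenced from 4 samples on the C57BL/6 strain, 2 of WT and 2 of *Areg*-/- Th9 cells. *Areg*-/- mice lack amphiregulin, a ligand of the receptor EGFR, in every cell and not in T cells alone. In both groups, sorted naïve CD4+ T cells were activated through CD3 and CD28 and cultured with TGF-β1 and IL-4, so that cells of both genotypes had been stimulated. By the methods of the study the cultures lasted for days, and no restimulation before RNA was taken is described. On that description the values are not those of a first response to the receptor. Whether the receptor was still signaling when RNA was taken is not given in the sources used here. The group name of the WT values also says that no doxycycline was given, that of the knockout values does not mention doxycycline, and the labels do not mention it. The labels give no ages, and the methods of the study describe young adult mice matched for age and sex. *Areg* itself is not among the listed genes, so the genotype could not be checked on it. By the methods of the study the work on *Areg*-/- mice was done at another institute, and whether the WT cells were made there too is not given in the sources used here, so site and genotype may not be told apart.

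The table gives 1 FPKM value per genotype, that is, fragments scaled to transcript length and to the mapped total, with both samples of a genotype combined. There are no values per sample. No spread, interval or test could therefore be computed for any difference, and the authors' own test columns were not used. The methods of the study give an approximate number of reads for the samples, but the table does not hold the reads behind each value. All 515 rows are genes that the table marks as different between genotypes, so genes that changed little are not seen, and every share below is a share of listed genes. Of the listed genes, 69.1% were higher and 30.9% lower in *Areg*-/- Th9 cells, and the median log2 ratio of *Areg*-/- over WT was 0.62. A difference was called over 2-fold when this log2 ratio lay beyond 1 or -1. *Xist*, an RNA of female cells, was listed at 15.5 FPKM in WT and 43.4 FPKM in *Areg*-/- cells (log2 ratio 1.49). Whether the sexes were equally represented in both genotypes was not tested.

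Engagement of the T cell receptor releases calcium and activates the MAP kinase and NF-κB pathways. These act on transcription factors of the NFAT, AP-1 and NF-κB families, which switch on a first wave of genes. *Egr3* and *Nr4a3* encode transcription factors of that wave. *Il2* encodes the growth factor IL-2, *Cd69* a membrane protein that keeps activated T cells in lymphoid tissue by removing the receptor for sphingosine-1-phosphate from the surface, and *Ier3* a small stress-response protein linked to survival and to NF-κB and ERK signaling. Many such mRNAs are short-lived and carry AU-rich elements in the 3′ UTR.

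A lower value was found for 4 of the 5 genes in *Areg*-/- Th9 cells and 1, *Ier3*, had a higher value. Over 2-fold lower were 2 of the 5, *Il2* and *Nr4a3*, beside 9.9% of all listed genes, and 0 of the 5 were over 2-fold higher, beside 25.2% of all listed genes. Nothing can be read from these shares, since the same contrast was known when the genes were chosen. All 5 were above 1 FPKM in both genotypes.

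**Figure D1:**
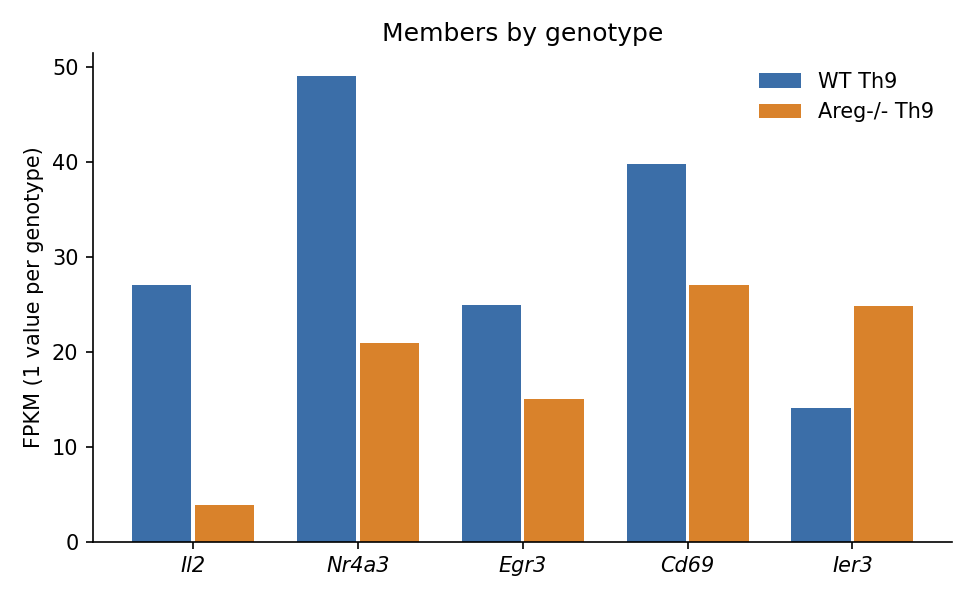
FPKM of the 5 genes in WT Th9 cells (blue) and *Areg*-/- Th9 cells (orange), 1 authors' value per genotype and therefore without error bars. *Il2* had the widest gap in proportion (27.0 against 3.92 FPKM), and *Ier3* was the gene with a higher orange bar (14.1 against 24.8 FPKM).

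*Il2* stood at 27.0 FPKM in WT Th9 cells and at 3.92 FPKM in their *Areg*-/- counterparts. The value in *Areg*-/- cells was 14.5% of that in WT cells, a log2 ratio of -2.79. This was the 4th lowest log2 ratio of the 515 genes, between *Tns2* (-2.82) and *Sntb1* (-2.64), both of which were below 2 FPKM in WT cells. By the difference in FPKM, which also follows abundance, *Il2* was at position 11 of the 159 lower genes. In the order of levels among the 515 genes *Il2* was at position 100 in WT cells and at position 362 in *Areg*-/- cells. The gene ENSMUSG00000027720.7 lies on the minus strand of GRCm38 at chr3:37120523-37125959, with 4 exons in its longest coding transcript. The locus given for its value is wider, chr3:37063526-37125959, and *Adad1*, on the opposite strand, overlaps *Il2*. Whether reads were counted by strand is not given in the sources used here, so reads of *Adad1* could have entered the value of *Il2*.

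*Nr4a3*, an orphan nuclear receptor, stood at 49.0 FPKM in WT cells and at 20.9 FPKM without *Areg*. The value in *Areg*-/- cells was 42.7% of that in WT cells, a log2 ratio of -1.23. It was the most abundant of the 5 mRNAs in WT cells and only the 3rd in *Areg*-/- cells, and its difference of -28.1 FPKM was wider than that of *Il2* (-23.1 FPKM). The gene (ENSMUSG00000028341.9) lies at chr4:48045153-48086447 on the plus strand, with 8 exons in the longest coding transcript. *Egr3*, a zinc finger factor that restrains T cell activation together with *Egr2*, stood at 24.9 FPKM in WT cells and at 15.0 FPKM without *Areg*, a log2 ratio of -0.73. This lies beside the median of the 159 lower genes, -0.73, so the difference was a middling one for a lower gene. *Egr3* (ENSMUSG00000033730.4) has 2 exons and lies at chr14:70077203-70082614 on the plus strand. The relatives *Egr1*, *Egr2*, *Nr4a1* and *Nr4a2* are not among the listed genes and were not analysed here.

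*Cd69* stood at 39.7 FPKM in WT cells and at 27.0 FPKM without *Areg*, a log2 ratio of -0.56. The value in *Areg*-/- cells was 68.0% of that in WT cells, the smallest gap in proportion among the 5 genes. The gene (ENSMUSG00000030156.5) lies at chr6:129267325-129275436 on the minus strand, with 5 exons in the longest coding transcript. *Ier3* went the other way. It stood at 14.1 FPKM in WT cells and at 24.8 FPKM without *Areg*, a 1.76-fold higher value and a log2 ratio of 0.82. This equals the median of the 356 higher genes to 2 decimals (0.82), and *Ier3* was at position 180 of them. The gene (ENSMUSG00000003541.6) lies at chr17:35821684-35822923 on the plus strand and has 2 exons. No annotated gene overlaps *Egr3*, *Nr4a3*, *Cd69* or *Ier3*.

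FPKM is scaled to transcript length, so the levels of the 5 genes can be set side by side. In WT cells the order from high to low was *Nr4a3*, *Cd69*, *Il2*, *Egr3* and *Ier3*, over a 3.49-fold range. In *Areg*-/- cells it was *Cd69*, *Ier3*, *Nr4a3*, *Egr3* and *Il2*, over a 6.89-fold range. *Il2* and *Egr3* in WT cells (27.0 and 24.9 FPKM) and *Cd69* and *Ier3* in *Areg*-/- cells (27.0 and 24.8 FPKM) were close, and without a spread no neighbours in either order can be told apart. *Ier3* was last in WT cells and *Il2* last in *Areg*-/- cells. Added together, the 5 genes came to 154.8 FPKM in WT cells and to 91.6 FPKM without *Areg*. Because these are bulk values, fewer cells expressing a gene and less RNA per cell cannot be told apart.

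**Figure D2:**
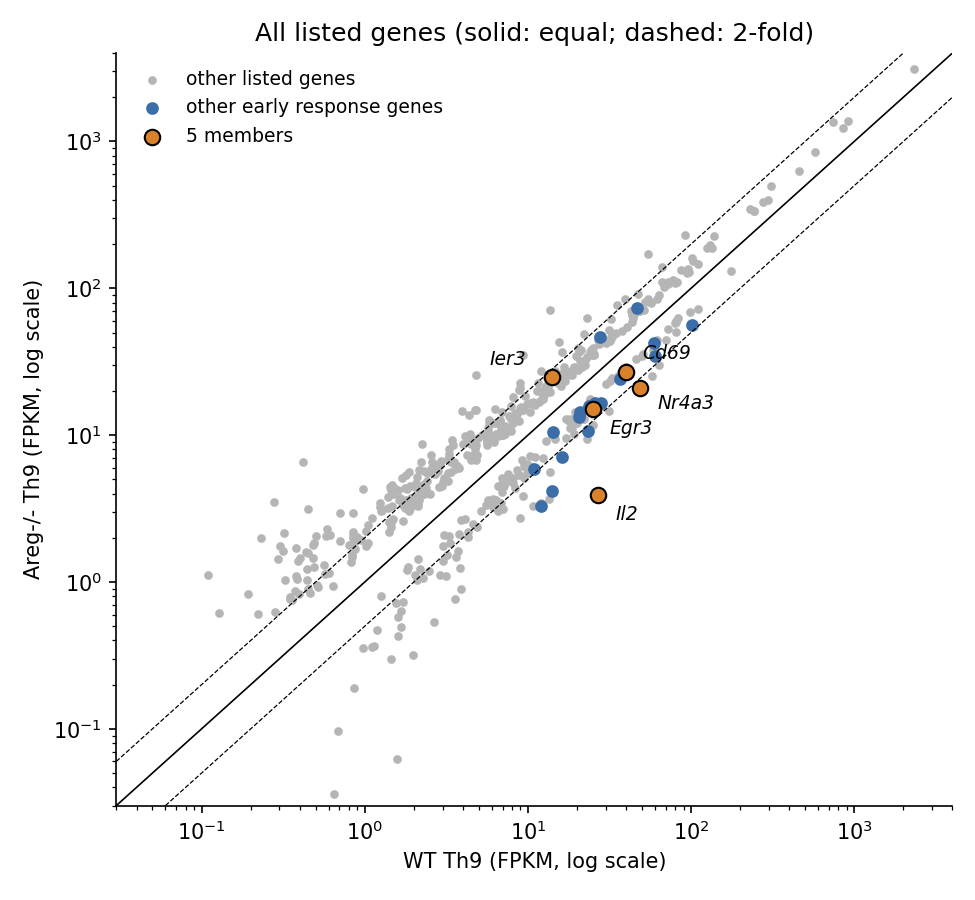
FPKM in WT Th9 cells (horizontal, log scale) against *Areg*-/- Th9 cells (vertical, log scale) for the 515 listed genes, with the 5 members in orange and other early response genes in blue. The solid line marks equal values and the dashed lines 2-fold differences. The empty band along the solid line is where genes with small differences, which are not listed, would lie, and *Il2* is farthest below it among the orange and blue genes.

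The members were next set against a wider list of 82 genes known to be induced by T cell receptor stimulation, which includes them. Of the 82 genes, 22 were listed, and the other 60 were not analysed here. Of the 22 listed genes, 19 were lower and 3 higher in *Areg*-/- Th9 cells (86.4% lower, beside 30.9% of all listed genes), with a median log2 ratio of -0.68 beside 0.62 over all listed genes. Of the 22, 6 were over 2-fold lower and 0 over 2-fold higher, beside 9.9% and 25.2% of all listed genes. Without the 5 members, 15 of 17 were lower, with a median of -0.63. The values of *Il3*, *Il4*, *Tnf*, *Ccl4* and *Tnfsf11* were known when the list was written, and without them as well 10 of 12 were lower, with a median of -0.61 and 2 genes over 2-fold lower. The list genes had WT levels from 10.9 to 101.2 FPKM. Of the 162 other listed genes in that range, 35.2% were lower and 4.94% over 2-fold lower. The list was also written with earlier results of these data known, so the remaining genes are not an independent set. These shares were not tested.

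Besides *Il2* and *Nr4a3*, 4 list genes were over 2-fold lower, of which the values of *Tnfsf11* and *Il3* were known when the list was written. *Tnfsf11*, which encodes RANKL, stood at 12.1 FPKM in WT cells and at 3.30 FPKM without *Areg* (log2 ratio -1.88). *Il3*, a growth factor for myeloid progenitors and mast cells, had 14.0 and 4.16 FPKM (-1.76). *Csf2*, which encodes GM-CSF, had 16.1 and 7.14 FPKM (-1.17). *Cd40lg*, the ligand through which helper T cells activate B cells, had 23.3 and 10.7 FPKM (-1.12). All 4 encode secreted or surface proteins, and none of their ratios was as low as that of *Il2*.

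Of the lower list genes, those with ratios nearest to 0 were *Gadd45b*, a stress-response gene (20.8 FPKM in WT and 14.3 in *Areg*-/- cells, log2 ratio -0.54), the chemokine *Ccl4* (59.0 and 42.7 FPKM, -0.47) and the NF-κB subunit *Rel* (14.2 and 10.6 FPKM, -0.42). Besides *Ier3*, 2 genes were higher. *Fosl2*, an AP-1 subunit, stood at 46.7 FPKM in WT cells and at 73.1 FPKM without *Areg* (0.65). *Il21*, a cytokine of helper T cells that acts on B cells and CD8+ T cells, had 27.8 and 46.5 FPKM (0.74). *Ier3* had the highest ratio of the 22. Relative to the median of all listed genes, the 3 higher genes remained higher by only 0.023 (*Fosl2*), 0.11 (*Il21*) and 0.19 (*Ier3*).

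**Figure D3:**
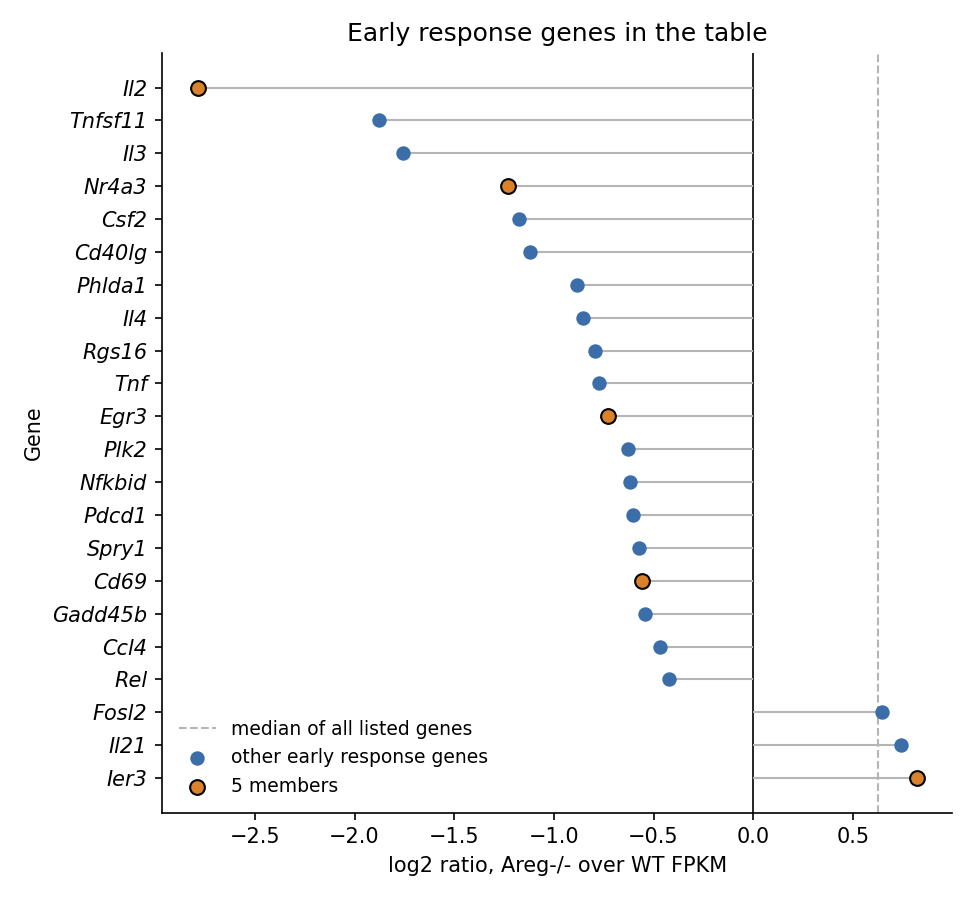
Log2 ratio of *Areg*-/- over WT FPKM for the 22 early response genes in the table, with the 5 members in orange and the others in blue. The solid line marks equal values and the dashed line the median of all 515 listed genes (0.62). The ratios run from -2.79 (*Il2*) to 0.82 (*Ier3*), with 19 genes left of the solid line and 3 right of it.

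IL-2 signals through its receptor to the kinases JAK1 and JAK3 and the factor STAT5. Of 28 genes of this pathway and its responses, 8 were listed, and these do not include the receptor chains, JAK1, JAK3 or STAT5, which were not analysed here. In *Areg*-/- Th9 cells 2 of the 8 were lower and 6 higher, beside 30.9% and 69.1% of all listed genes, and 3 were lower once centered on the median of listed genes. The lower genes were *Bcl6*, a repressor that IL-2 signaling restrains (1.56 FPKM in WT and 0.723 in *Areg*-/- cells, log2 ratio -1.11), and *Lta*, which encodes lymphotoxin (98.1 and 68.9 FPKM, -0.51). The higher genes included the cytotoxic granule genes *Gzmb* (736.9 and 1362 FPKM, 0.89) and *Prf1* (3.41 and 9.27 FPKM, 1.44). The feedback inhibitor *Socs3* had 32.4 and 61.9 FPKM (0.93), and *Tnfrsf8*, which encodes CD30, had 13.1 and 24.7 FPKM (0.92). *Prdm1*, which encodes Blimp-1, had 1.41 and 2.20 FPKM (0.64), and the survival gene *Bcl2* had 31.8 and 43.8 FPKM (0.46), the 1 gene of this list that changed sign on centering. The value of *Il2* mRNA itself was lower.

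None of 46 genes for components of T cell receptor signaling, from the CD3 chains to the kinases and NFAT factors, was listed, nor were 9 markers of T cells such as *Cd3e* and *Cd4*. They were not analysed here, and the T cell identity could not be checked on them. Of 39 negative regulators of the receptor, 5 were listed, 3 lower and 2 higher (4 lower on centering), beside 30.9% and 69.1% of all listed genes. The inhibitory receptors *Btla* and *Pdcd1* had 81.3 and 50.4 FPKM (log2 ratio -0.69) and 36.9 and 24.3 FPKM (-0.60) in WT and *Areg*-/- cells, and *Tox*, a nuclear factor of chronically stimulated T cells, had 6.94 and 4.65 FPKM (-0.58). *Lag3*, another inhibitory receptor, had 125.1 and 186.8 FPKM (0.58, below 0 on centering). *Rnf128*, an E3 ligase linked to T cell anergy, had 0.445 and 1.23 FPKM (1.46).

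T cells lower a set of homing and quiescence genes when they are activated. Of 26 such genes, 7 were listed, 6 higher and 1 lower in *Areg*-/- Th9 cells, beside 69.1% higher of all listed genes. On centering, 3 were higher, 3 lower and 1 was itself the median. *Klf2*, a factor that maintains quiescence, stood at 1.39 FPKM in WT cells and at 3.17 FPKM without *Areg* (log2 ratio 1.19). *Tsc22d3*, a glucocorticoid-induced gene, had 5.78 and 10.1 FPKM (0.80). Both genes were also higher on centering. *Igfbp4* (0.62), *Ramp3* (0.54) and *Foxo1* (0.42) were higher by no more than the median of all listed genes, and *Slfn2*, a gene that maintains quiescence, was lower (9.84 and 6.39 FPKM, -0.62).

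*Ier3* is also a target of NF-κB, and of 26 NF-κB target genes 7 were listed. Of these 5 were lower, namely *Tnf* (log2 ratio -0.77), *Nfkbid* (-0.62), *Gadd45b* (-0.54), *Bcl2a1b* (-0.45) and *Rel* (-0.42), beside 30.9% lower of all listed genes. The higher ones were *Ier3* (0.82) and *Bcl3* (0.45), of which *Bcl3* was below 0 on centering. *Bcl2a1b* has close paralogs that can share its reads. *Ier3* thus differed in sign from most listed targets of this pathway, which was not tested. Of the 7, all but *Bcl2a1b* and *Bcl3* are also in the early response list above.

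Markers of another cell type were also listed. By the methods of the study the cultures were started from naïve CD4+ T cells sorted to high, not full, purity. The table lists 5 of 9 CD8+ T cell and NK cell markers, all 5 higher in *Areg*-/- cells, beside 69.1% of all listed genes. Activated CD4+ T cells can also express some of them, and *Prf1* is in the IL-2 list above as well. The summed level of the 5 markers was 22.2 FPKM in WT and 92.2 FPKM in *Areg*-/- cells. *Gzma* made up most of it (13.7 and 70.8 FPKM). *Cd8a* had 2.13 and 3.32 FPKM, and *Klrd1*, *Klrk1* and *Prf1* were each below 10 FPKM in both genotypes. The log2 ratios were 2.37 for *Gzma*, 1.62 for *Klrd1*, 1.52 for *Klrk1*, 1.44 for *Prf1* and 0.64 for *Cd8a*. Thus 4 of the 5 were over 2-fold higher, beside 25.2% of all listed genes. Of 6 B cell and 6 myeloid markers, 0 were listed. The part of other cells in the values of the 5 genes was not tested. Of 7 genes linked to Th9 cells, 3 were listed, *Il9* (3.82 FPKM in WT and 1.24 in *Areg*-/- cells, log2 ratio -1.62), *Ccl22* (6.93 and 4.12 FPKM, -0.75) and *Il10* (9.13 and 15.6 FPKM, 0.78).

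With only 2 values per gene, likeness was measured as the distance between both log2 FPKM values. The nearest listed gene to *Il2* was *Il3*, at a distance of 0.95, followed by *Lair1*, an inhibitory collagen receptor (1.01). *Egr3* lay nearest to *Angptl2* (0.062) and *Spry1*, a feedback inhibitor of ERK signaling (0.11). *Nr4a3* lay nearest to *Serpina3g* (0.36) and *Eno3* (0.39), *Cd69* to the nucleic acid sensor *Zbp1* (0.034) and to *Mdfic* (0.071), and *Ier3* to the phosphodiesterase *Pde4b* (0.072) and to *Acot13* (0.088). *Il2* therefore had no near neighbor in the table, and each of *Egr3*, *Cd69* and *Ier3* had a neighbor within 0.1.

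The 5 mRNAs share AU-rich pentamers, AUUUA, in the annotated 3′ UTR of their longest coding transcript, as do most other listed early response genes. The pentamers were not used to choose the 5, but AU-rich elements are common in mRNAs of this kind. *Il2* has 7 in 581 bases, *Ier3* 5 in 613, *Egr3* 7 in 2645, *Nr4a3* 5 in 3093 and *Cd69* 2 in 936. Of the 481 listed protein-coding genes with a 3′ UTR, 68.6% have at least 1 pentamer, and their median density was 1.33 per kilobase. All 5 members lie above that median. The median was 1.78 per kilobase among lower genes, which *Nr4a3* does not reach, and 1.09 among higher genes, and 80.8% of lower and 63.0% of higher genes have a pentamer. Only 5 of the 481 genes exceeded the density of *Il2*, 12.05 per kilobase, and 15 exceeded that of *Ier3*, 8.16 per kilobase. The mRNA level of *Il2* was lower and that of *Ier3* higher in *Areg*-/- cells. A relation between density and direction was not tested. The density was 2.65 in *Egr3*, 2.14 in *Cd69* and 1.62 in *Nr4a3*. Of the 17 other early response genes in the table, 15 (88.2%) also have a pentamer. The median density among the 17 was 3.49 per kilobase, beside 2.65 among the 5 members, so the pentamers are not particular to the members. Long UTRs hold more pentamers by length alone, which is why densities are given, and these figures were not tested.

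The 30 bases of each 3′ UTR of *Il2* and *Ier3* with the most pentamers are shown because these are the densest of the 5, as DNA of GRCm38 on the strand of the gene, with the pentamers in capitals. That of *Il2* (chr3:37121040-37121069, minus strand) starts 34 bases after the stop codon and holds 4, of which the first pair overlap. That of *Ier3* (chr17:35822476-35822505, plus strand) starts 165 bases after it and holds 2.
Il2: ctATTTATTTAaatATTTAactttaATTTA
Ier3: ctccgtgtctaattaatATTTAtgtATTTA

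**Figure D4:**
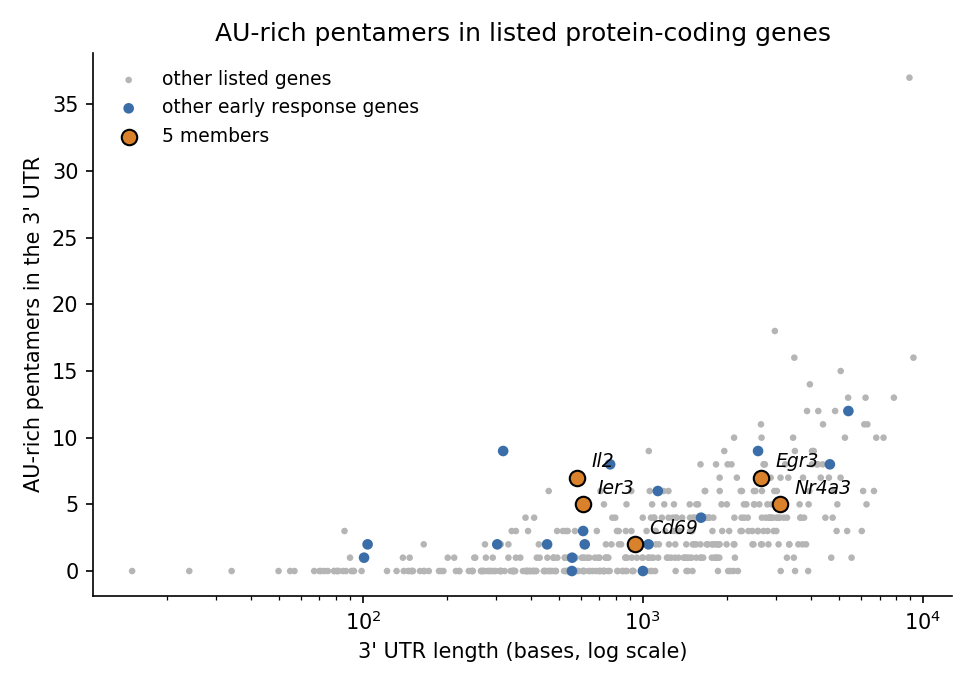
Number of AU-rich pentamers (vertical) against the length of the 3′ UTR in bases (horizontal, log scale) for the 481 listed protein-coding genes with a 3′ UTR, with the 5 members in orange and other early response genes in blue. *Il2* (7 pentamers in 581 bases) and *Ier3* (5 in 613) lie above most genes of their length, and *Cd69* (2 in 936) lies among them.

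In gene structure the 5 members were less alike. *Ier3*, which spans 1240 bases, was shorter than all but 2 of the 484 listed protein-coding genes, whose median span was 19528 bases. *Egr3* (5412 bases), *Il2* (5437) and *Cd69* (8112) were below that median and *Nr4a3* (41295) above it. The GC content of the longest coding transcript was 39.4% for *Il2* and 41.5% for *Cd69*, 48.4% for *Nr4a3*, 51.3% for *Egr3* and 54.4% for *Ier3*, around a median of 51.0%. The members lie on chromosomes 3, 4, 6, 14 and 17, so none of them neighbors *Areg* on chromosome 5.

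The promoters of *Il2*, *Nr4a3* and *Ier3* are shown because only these 3 members had a window in the set of promoters (GRCm38.p6) used here. That set holds no window for *Egr3* and *Cd69*, which does not mean that they lack an annotated start. These promoters belong to the lowest ratio, to the transcription factor with a ratio past 2-fold and to the 1 higher gene. Each runs from 250 bases before the annotated start to 50 bases after it, 5′ to 3′ on the strand of the gene, with motif matches in capitals. *Il2* is on the minus strand (chr3:37125905-37126204), *Nr4a3* (chr4:48045055-48045354) and *Ier3* (chr17:35821463-35821762) on the plus strand.
Il2: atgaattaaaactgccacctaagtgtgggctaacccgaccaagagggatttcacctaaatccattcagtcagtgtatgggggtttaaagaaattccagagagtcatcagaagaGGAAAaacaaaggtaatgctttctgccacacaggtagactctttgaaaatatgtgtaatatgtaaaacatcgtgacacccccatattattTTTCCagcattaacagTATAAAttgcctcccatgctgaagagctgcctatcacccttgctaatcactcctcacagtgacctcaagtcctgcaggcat
Nr4a3: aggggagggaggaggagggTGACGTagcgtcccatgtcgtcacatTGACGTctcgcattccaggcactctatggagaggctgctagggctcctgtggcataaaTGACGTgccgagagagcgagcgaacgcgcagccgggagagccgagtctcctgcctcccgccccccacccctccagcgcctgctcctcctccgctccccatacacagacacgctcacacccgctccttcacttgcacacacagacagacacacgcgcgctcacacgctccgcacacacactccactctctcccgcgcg
Ier3: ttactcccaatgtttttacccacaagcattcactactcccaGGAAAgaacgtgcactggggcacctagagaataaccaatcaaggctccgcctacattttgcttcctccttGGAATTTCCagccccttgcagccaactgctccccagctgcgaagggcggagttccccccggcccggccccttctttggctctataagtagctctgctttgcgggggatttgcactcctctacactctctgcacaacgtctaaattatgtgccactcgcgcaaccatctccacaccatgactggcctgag

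Matches were sought on both strands to AP-1 (TGANTCA), CRE (TGACGTCA), the NFAT core (GGAAA), a κB-like motif (GGNNNTTCC), EGR (GCGGGGGCG), the TATA box (TATAAA) and the CArG box. The CRE core (TGACGT), which lies within CRE, was added after these sequences had been read. In *Il2* the NFAT core occurs 2 times and the TATA box 1 time, at -31 to -26 with the start counted as 0. These motifs are common, since of 26987 promoters of the same length 61.3% hold the NFAT core and 14.2% the TATA box. *Ier3* holds 2 NFAT cores and the κB-like motif, at -139 to -131, which reads as a match on both strands, overlaps 1 of the NFAT cores and occurs in 18.4% of promoters. *Nr4a3* holds the CRE core 3 times, between -231 and -142, and 7.64% of promoters hold it at least once. None of the other motifs occurs in the 3 windows, where AP-1 occurs in 7.94% of promoters, the full CRE in 1.88%, EGR in 2.92% and the CArG box in 1.57%. A match describes letters in a window and is not evidence of binding. Sites that differ from these letters by a base are missed, so a window without a match may still hold one.

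**Figure D5:**
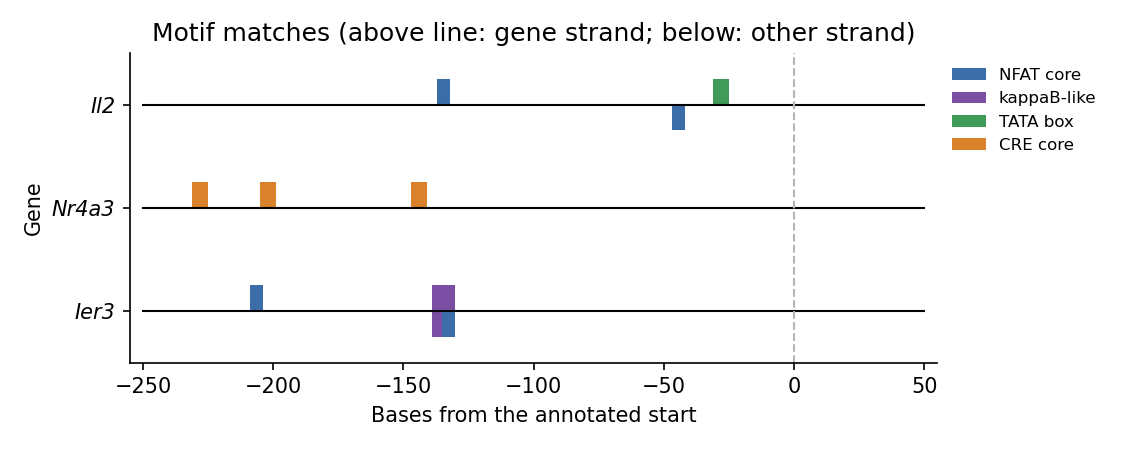
Positions of motif matches in the promoters of *Il2*, *Nr4a3* and *Ier3*, in bases from the annotated start (dashed line), drawn above the line for the strand of the gene and below it for the other strand. The 3 genes share no full set of motifs, with the NFAT core in *Il2* and *Ier3*, the TATA box in *Il2*, the κB-like motif in *Ier3* and the CRE core, 3 times, in *Nr4a3*.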

How the data were processed

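Poly(A)-selected libraries of 2 WT and 2 *Areg*-/- Th9 samples were sequenced as paired ends. Per the labels and the methods of the study, reads were cleaned with FastQC and FASTX, alignment to GRCm38 used Bowtie2 and TopHat2, and HTSeq-count and Cuffdiff gave expression. The annotation, the strand setting and versions of the aligners and of Cuffdiff are not given in the sources used here. Each deposited FPKM value combines both samples of a genotype. The table also holds the authors' fold changes, test statistics, p-values, q-values and a mark of significance. The mark was counted (515 of 515 rows carry it), and the other columns were not used. The WT values were taken as those of the WT samples from the group name. Depth per value, sample spread and any test need values per sample, so no test was run.

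The log2 ratio was computed without a pseudocount, and alternatives were pseudocounts of 1 and 0.1, FPKM minimums and centering on the median of the listed genes. The members and lists were chosen with earlier results of these data known. Named genes were the members, list genes in the table (the 6 lowest and 6 highest ratios of a list with over 12), the 2 nearest genes of each member and its neighbors in rank. *Xist* was named as well. The values of 1 list gene are not reported here. Gene models came from GENCODE M21 (GRCm38), where 515 of 515 identifiers matched without version. Promoters came from a prepared set of RefSeq promoter windows, in which 379 of 515 symbols and 3 of 5 members had a window. The ratio and the motif search were tested on simulated data. Python 3.11.15, numpy 2.4.6, pandas 2.3.3 and matplotlib 3.10.9 were used.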

Additional observations from a re-analysis of the deposited data

How the results depend on the processing

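No paired analysis was possible because each genotype has a single combined value, and for the same reason leaving out a replicate and DESeq2 against edgeR were not run. The direction of each of the 5 members was the same with pseudocounts of 1 and 0.1, with both FPKM minimums and on centering. Centering on the median of the listed genes moved *Egr3* to -1.36 and *Cd69* to -1.18, so that 4 members were over 2-fold lower in place of 2, and it moved the early response genes over 2-fold lower from 6 to 19. It also put 159 listed genes over 2-fold lower in place of 51, which is every lower gene, because the lower ratio nearest to 0 is -0.41 and centering takes 0.62 from each. With a pseudocount of 1 that number was 23, and with an FPKM of at least 1 in both genotypes it was 32. In an alternative chosen after the data were seen, leaving out the 5 members and 5 genes known from earlier results left 10 early response genes lower in place of 19 and 2 over 2-fold lower in place of 6, as fewer genes are counted. The rank of *Il2* went from 4 by log2 ratio to 11 by difference in FPKM. The table does not hold the reads behind each value, so no limit from depth was computed.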
